A study of Mus musculus with 2 samples.

Results

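The open chromatin regions described here were distal peaks called in the Control library of embryonic back skin that had no counterpart in the peak list of the MOF cKO library. They were chosen by 3 criteria on the deposited files: a Control peak had to overlap no MOF cKO peak by 1 bp, lie more than 2 kb from every annotated transcription start site, and hold at least 200 transposition cuts summed over all Control cells. Of 249619 Control peaks on the autosomes, X and Y, 32976 overlapped no MOF cKO peak, 27930 of these were distal, and 5154 also reached the minimum of cuts. These 5154 Control-only distal peaks were 2.06% of all Control peaks and 18.5% of the distal Control peaks without a MOF cKO counterpart. The presence of a peak in the Control list and its absence from the MOF cKO list selected the regions, so neither is a finding. The matrix of each library covers only its own peaks, and so the matrices give no MOF cKO level for any of the 5154 regions.

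Single-cell ATAC-seq was performed on 1 Control and 1 MOF cKO library from back skin of E16.5 mouse embryos. MOF cKO embryos carried MOFfl/fl/K14Cre, a floxed allele of the acetyltransferase gene deleted by a Cre recombinase that the K14 promoter drives in epidermis and hair follicles, and the labels give the other genotype only as Control. Fibroblast, immune and mural cells are not targets of that Cre, and accessibility does not check the deletion, so the genotypes rest on the labels. In both, cells positive for the K14-H2BGFP reporter were sorted and mixed with GFP-negative cells, at 5:1 by the labels, while the study's text gives other ratios, so epithelial cells are enriched and the share of each cell type was set by the sort. With 1 library per genotype there is no replicate check on any difference between genotypes, and no p-value is given. Intervals are 95% and cover no variation between animals. Exact Poisson intervals of levels cover counting error only. Exact binomial intervals of shares and order-statistic intervals of medians treat regions as independent, and take the leading group of each region as known. The Control library held 2541 barcodes and 169641002 cuts (median 62973 per barcode), the MOF cKO library 4348 barcodes and 324310197 cuts (median 66240), and 21 barcode sequences occurred in both. The MOF cKO peak list was 36.2% longer, with 340079 peaks.

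MOF acetylates lysine 16 of histone H4, a mark known for loosening chromatin. Distal open regions include enhancers, stretches of DNA where transcription factors bind and act on promoters over long distances. In embryonic skin, AP-1 factors (Fos and Jun dimers) bind many enhancers of keratinocytes and fibroblasts, p63 and Grainyhead-like factors act in epidermal enhancers, and hair follicle progenitors use homeobox factors such as Lhx2, forkhead factors and the Wnt effectors TCF and LEF. An Lhx2-type homeobox factor binds the core TAATTA.

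Sequences of 6 Control-only distal peaks are shown because they are the regions with the most cuts, or with the greatest preference for 1 group of Control cells, and because all 3 leading hair-follicle-like regions carry TAATTA. Each is the central 300 bp on the plus strand of GRCm38 (mm10), read from the RefSeq assembly of that build. Capitals mark every match to 18 short transcription factor motifs that were searched on both strands, and a match is a description of letters, not evidence of a bound factor.
Adgrl2 region, chr3:149116947-149117246, most cuts, 126 kb from the Adgrl2 start site: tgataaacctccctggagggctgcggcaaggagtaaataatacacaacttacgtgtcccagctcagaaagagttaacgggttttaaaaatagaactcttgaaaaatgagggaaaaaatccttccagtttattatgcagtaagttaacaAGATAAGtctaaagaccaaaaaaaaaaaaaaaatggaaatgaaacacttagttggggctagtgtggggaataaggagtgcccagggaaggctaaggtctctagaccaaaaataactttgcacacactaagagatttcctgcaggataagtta
Mecom region, chr3:30071317-30071616, intron of Mecom, highest ratio in hair-follicle-like cells: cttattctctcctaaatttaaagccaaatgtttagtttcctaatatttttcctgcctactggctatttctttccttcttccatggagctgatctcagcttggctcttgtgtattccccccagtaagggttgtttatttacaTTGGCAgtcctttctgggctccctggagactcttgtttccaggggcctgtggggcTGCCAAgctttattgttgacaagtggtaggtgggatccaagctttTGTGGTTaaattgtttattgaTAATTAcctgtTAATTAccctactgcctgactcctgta
Pld5 region, chr1:176376076-176376375, intergenic, next ratio in hair-follicle-like cells: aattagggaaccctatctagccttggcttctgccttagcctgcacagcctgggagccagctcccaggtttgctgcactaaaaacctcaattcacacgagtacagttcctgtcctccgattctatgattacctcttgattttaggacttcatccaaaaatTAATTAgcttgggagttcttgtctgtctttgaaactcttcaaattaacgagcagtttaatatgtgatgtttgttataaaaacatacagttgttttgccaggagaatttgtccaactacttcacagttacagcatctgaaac
Tprg region, chr16:25363075-25363374, intron of Tprg, next ratio in hair-follicle-like cells: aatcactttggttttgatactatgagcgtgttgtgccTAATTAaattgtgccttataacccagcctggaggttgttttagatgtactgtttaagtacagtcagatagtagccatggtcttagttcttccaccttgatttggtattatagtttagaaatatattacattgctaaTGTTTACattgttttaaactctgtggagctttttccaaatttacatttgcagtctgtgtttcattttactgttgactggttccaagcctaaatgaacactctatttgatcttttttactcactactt
Ptchd3 region, chr11:121810191-121810490, intergenic, highest ratio in the other epithelial-like cells: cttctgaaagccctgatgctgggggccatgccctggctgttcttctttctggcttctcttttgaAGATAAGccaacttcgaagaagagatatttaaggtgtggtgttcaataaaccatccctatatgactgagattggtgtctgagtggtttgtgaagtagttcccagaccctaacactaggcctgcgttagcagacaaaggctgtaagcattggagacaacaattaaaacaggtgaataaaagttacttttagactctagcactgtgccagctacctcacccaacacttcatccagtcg
Ebf1 region, chr11:44796598-44796897, intron of Ebf1, high ratio in fibroblast-like cells: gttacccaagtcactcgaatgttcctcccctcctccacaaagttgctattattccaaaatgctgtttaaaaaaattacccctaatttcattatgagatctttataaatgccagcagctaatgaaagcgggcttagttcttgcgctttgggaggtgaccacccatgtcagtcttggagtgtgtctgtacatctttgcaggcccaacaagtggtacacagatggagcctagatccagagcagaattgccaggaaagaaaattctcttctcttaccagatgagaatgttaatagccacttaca
The Mecom window held NFI and RUNX motifs beside TAATTA, the Tprg window a FOX motif beside TAATTA, the Adgrl2 and Ptchd3 windows a GATA motif, and the Ebf1 window none of the 18. The region with the highest ratio in fibroblast-like cells is described by its values alone, and the next stands in its place here. The central 300 bp of the region left out also held TAATTA. So did those of the Zfp960 region, second by ratio in the other epithelial-like cells and not shown. TAATTA is therefore not confined to hair-follicle-like regions, and of all regions led by hair-follicle-like cells 29.3% held it. The sequences of Pld5 and Tprg were added after their values were seen. None of the 6 sequences held the AP-1 motif TGACTCA.

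Most Control-only distal peaks were weak and lay close to a MOF cKO peak. Their cuts ranged from 200 to 4282 with a median of 270, against a median of 430 in the 103011 distal Control peaks that overlapped a MOF cKO peak and also reached 200 cuts, which are called shared distal peaks below. By range, 4188 had under 400 cuts, 834 had from 400 to under 800 and 132 had 800 or more. The median region was 866 bp wide (shared 892 bp) and had cuts in 113 Control cells (shared 177), and in none did 1 cell give more than 10% of the cuts. Just inside the minimum lay regions in an intron of Mgat4a, an exon of Cnot11 and near Rab3gap2 with 200 cuts in 95, 84 and 78 cells. Just outside it lay regions in introns of Col19a1, Mreg and Ankmy1 with 199 cuts in 81, 85 and 94 cells. The minimum of 200 Control cuts corresponds to 383 cuts at the depth of the MOF cKO library, where 51.2% of the called peaks held fewer.

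The distance to the nearest MOF cKO peak had a median of 781 bp. It was at most 1 kb for 2966 regions (57.5%), 5 regions touched a MOF cKO peak without sharing a base, 461 regions were more than 5 kb away, and the greatest distance was 309 kb. The nearest MOF cKO peak overlapped another Control peak for 3905 of the 5154 regions. For regions close to a MOF cKO peak, a peak boundary placed elsewhere and a region absent from the list cannot be told apart, and results are therefore also given for the 2188 regions more than 1 kb away.

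Control-only distal peaks lay in introns in 56.7% of cases (2921), between genes in 39.1% (2015) and in exons in 4.23% (218), while shared distal peaks were intronic in 50.5%, intergenic in 45.5% and exonic in 3.95%. The median distance to a protein-coding start site was 30.3 kb (shared 33.6 kb). Base composition was close to that of shared distal peaks, with mean GC of 46.9% against 47.6% and a median of 3 against 4 CpG dinucleotides in the central 300 bp. Annotated repeats covered more than 50% of that window in 5.18% of Control-only and 4.81% of shared distal peaks. The 5154 regions held 0.998% of all Control cuts in peaks.

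To ask in which Control cells these regions were open, cells of both libraries were clustered on shared regions, none of which is a Control-only distal peak. Of 16 clusters, 5 were epithelial-like, 3 fibroblast-like, 2 immune-like and 1 mural-like by promoter accessibility of marker genes, and 5 stayed unnamed. The mural-like cluster had 5 of 7 measured mural markers at least 2-fold higher. Its top 10 genes held no listed mural marker, however, and included Ddr2 and Mrgprf, as did those of the fibroblast-like clusters. The Control cells of named epithelial-like clusters fell, but for 1 cell, into a pair of clusters of 558 and 736 cells, which held 26 and 8 MOF cKO cells, whereas 2530 MOF cKO cells and that Control cell made up the other 3 epithelial-like clusters. A further 315 and 98 Control cells lay in clusters whose markers were also mostly epithelial (8 and 7 of 10 at least 2-fold higher) but which stayed unnamed, the first for its shallow cells and the second for its high doublet score. The cluster of 558 Control cells is called hair-follicle-like here. In it the promoters of all 8 hair follicle markers had a higher CPM than in the other Control epithelial-like cluster, 6 of them by at least 1.5-fold but 1 (Krt17) by at least 2-fold, and 4 of 8 were at least 2-fold above the median cluster. The same cluster had 5 of 8 basal epidermal markers at least 2-fold above the median cluster (Krt5 5.95-fold), of which 4 were higher and 4 lower than in the other Control epithelial-like cluster, and all 6 measured suprabasal markers were lower than there. The name therefore rests on the comparison of these clusters and on modest differences. CPM is the standard count scale that divides the cuts in a region by all cuts in shared regions of the same cells, to which 5 was added before these marker ratios. Shh, the ligand of hedgehog signalling in the hair follicle, had a promoter level of 11.6 CPM against 4.19, and Lhx2 43.4 against 21.3. Sox9 (26.0 against 14.3) and Lhx2 are also open in the fibroblast-like clusters (32.9 to 46.2 and 30.2 to 44.2 CPM), as are Ptch1 (53.0 in the hair-follicle-like cluster, 39.3 to 57.3 in the fibroblast-like ones) and Tbx1 (15.5, 9.56 to 12.5), so these 4 do not separate follicle from dermis. In the 3 MOF cKO epithelial-like clusters the highest level of each of the 8 markers stayed below that in the hair-follicle-like cluster (Shh 3.57 to 5.98, Lhx2 13.5 to 20.7 CPM), as it did for 6 of 8 basal epidermal markers. Over all promoters 84.1% had a lower CPM in MOF cKO epithelial-like cells, so nothing particular to follicle markers is read from this count.

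Control-only distal peaks were led by the hair-follicle-like cluster far more often than shared distal peaks. The leading group is the one with the highest CPM among hair-follicle-like (558 Control cells), other epithelial-like (736), fibroblast-like (653), immune-like (46) and mural-like (20) cells. Hair-follicle-like cells led 2199 regions, 42.7% (41.3 to 44.0), against 19.6% (19.4 to 19.9) of shared distal peaks. The other epithelial-like cluster led 859 regions, 16.7% (15.7 to 17.7), against 29.0% of shared distal peaks. Fibroblast-like cells led 1266, 24.6% (23.4 to 25.8), a share close to the 23.7% in shared distal peaks. Immune-like cells led 313 (6.07%, shared 12.7%) and mural-like cells 517 (10.0%, shared 15%), both from few cells and thus with a large counting error. Together the epithelial-like clusters led 59.3% (58.0 to 60.7) of the regions and 48.6% of shared distal peaks.

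**Figure D1:**
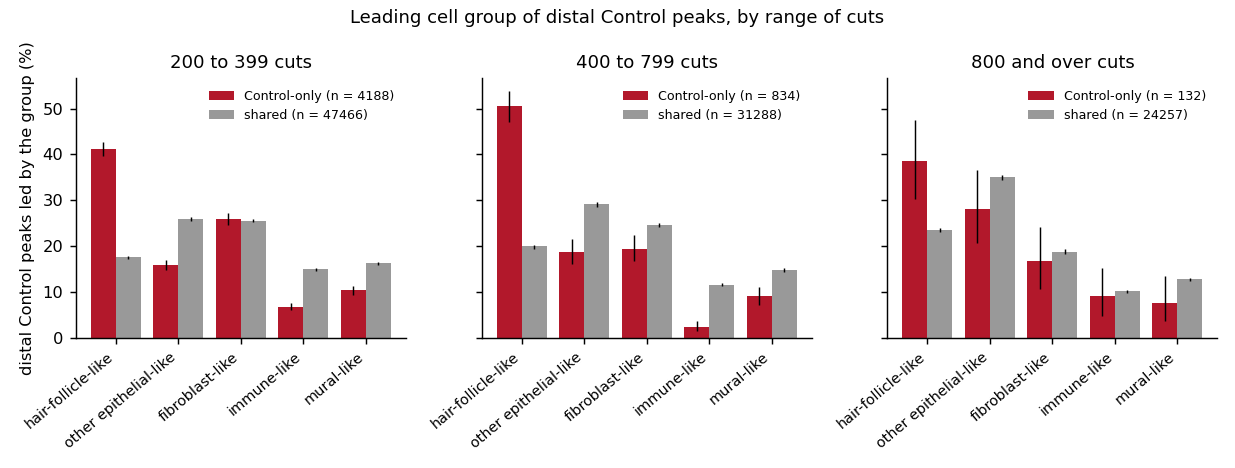
Share of distal Control peaks (y axis, %) led by each group of Control cells (x axis) in 3 ranges of total cuts, for Control-only (red) and shared (grey) distal peaks; error bars are exact 95% binomial intervals. The hair-follicle-like bar is higher for Control-only peaks in every range, 41.2% against 17.5%, 50.5% against 19.9% and 38.6% against 23.5%.

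The difference in hair-follicle-like share was present at every range of cuts, since 41.2%, 50.5% and 38.6% of Control-only regions with under 400, 400 to under 800, and 800 or more cuts were led by these cells, against 17.5%, 19.9% and 23.5% of shared distal peaks. The share rose with distance from the nearest MOF cKO peak, from 35.7% within 250 bp through 40.8% and 46.2% to 54.2% (49.6 to 58.8) beyond 5 kb. This distance is measured to the peaks that the selection used, and shared distal peaks have no such ranges. The rise is therefore a description without a comparison. Among regions more than 1 kb away the hair-follicle-like share was 45.7% (43.5 to 48.0, n = 1909) with under 400 cuts, 63.7% (57.5 to 69.6, n = 259) with 400 to under 800 and 50% (27.2 to 72.8, n = 20) with 800 or more. Comparing the epithelial clusters directly, 1646 regions (31.9%) had at least 2-fold higher CPM in hair-follicle-like than in the other epithelial-like cells and 221 (4.29%) the opposite, while shared distal peaks were nearly balanced, with 9.65% and 8.04% (0.2 CPM added to each level).

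**Figure D2:**
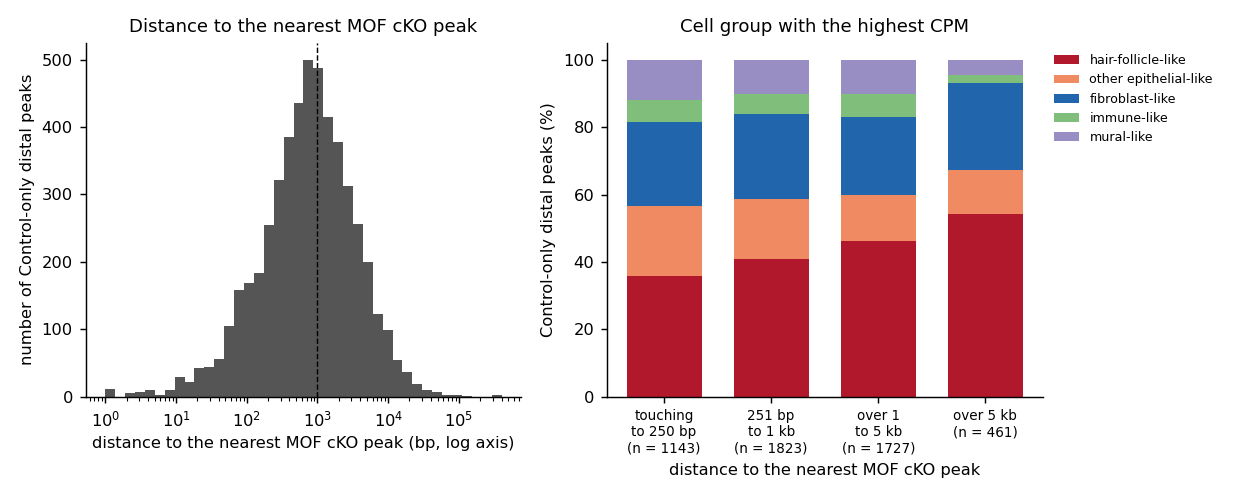
Left, number of Control-only distal peaks (y axis) by distance to the nearest MOF cKO peak (x axis, bp, log scale; dashed line, 1 kb), with a median of 781 bp. Right, percent of these peaks (y axis) led by each group of Control cells in 4 ranges of that distance (x axis); the hair-follicle-like share goes from 35.7% to 54.2%.

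Viewed cell by cell, hair-follicle-like cells had the highest share among the named groups. The same Control cuts set the minimum of 200 and the leading groups, so this is another view of them and not further support. Of the cuts that each Control cell had in distal peaks of at least 200 cuts, the median hair-follicle-like cell had 2.80% in Control-only regions (quartiles 2.13 to 3.88, 558 cells). The other epithelial-like cells had 1.70% (1.51 to 1.91, 736 cells). Among fibroblast-like cells the cluster with 475 Control cells had 2.52% (1.97 to 3.03), and those with 147 and 31 Control cells had 1.51% and 1.48%. The first of these fibroblast-like clusters also held the larger Control share, with 475 Control and 345 MOF cKO cells, against 147 and 490, and 31 and 413. Mural-like cells had 1.89% (20 cells), above the other epithelial-like cells, and immune-like cells 1.57% (46 cells). How far the numbers of cells of each cluster in the libraries set which peaks were called was not tested.

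The 5 regions with the most cuts were not the most cell-specific. The first, at chr3:149116614-149117579 between genes and nearest to Adgrl2, which encodes an adhesion G protein-coupled receptor, had 4282 cuts in 928 cells. Its level was 44.6 CPM (42.1 to 47.2) in other epithelial-like, 30 (27.7 to 32.3) in hair-follicle-like and 0.633 (0.332 to 1.09) in fibroblast-like cells, and the nearest MOF cKO peak was 1071 bp away. The next, in an intron of the phosphoinositide phosphatase gene Inpp5f at chr7:128671940-128672756, was open in every group at 17.2, 15.7 and 22.6 CPM in hair-follicle-like, other epithelial-like and fibroblast-like cells. Its 3039 cuts came from 882 cells and the nearest MOF cKO peak was 2502 bp away. Another, near the tubulin gene Tubb6 at chr18:67368762-67369355, was open in both epithelial groups (23.6 and 25.8 CPM) and low in fibroblast-like cells (2.99), and ended 34 bp from a MOF cKO peak. An intronic region of the myosin gene Myo18a (chr11:77791704-77792459, 2343 cuts) had 25.8 CPM in hair-follicle-like against 16.1 in other epithelial-like cells and lay 50 bp from a MOF cKO peak. The region 212 kb from Rnf32 (chr5:28982513-28983564, 2075 cuts) had 29.0 CPM (26.8 to 31.3) in hair-follicle-like, 9.67 (8.53 to 10.9) in other epithelial-like and 0.278 in fibroblast-like cells. It lay 1959 bp from the nearest MOF cKO peak. The intervals of the 2 epithelial groups did not overlap for Adgrl2, Myo18a and Rnf32, and did overlap for Inpp5f and Tubb6.

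Other regions were open mostly in 1 of the groups with over 100 Control cells. Among the 2523 regions with at least 100 cuts in hair-follicle-like cells, the highest ratio to all other Control cells was 27.5, at an intron of Mecom (chr3:30071003-30071930), which encodes a zinc finger transcription factor. There 194 of 212 cuts came from hair-follicle-like cells, for 4.29 CPM (3.47 to 5.23) against 0.151 (0.041 to 0.386) in other epithelial-like and 0.101 in fibroblast-like cells. Regions near Pld5 (chr1:176375741-176376710, 7.38 CPM against 0.188) and in an intron of Tprg, a gene named for its regulation by p63 (chr16:25362877-25363572, 6.91 CPM against 0.113), followed with ratios of 26.9 each. These 3 regions, whose sequences are given above, were 19117, 125 and 800 bp from the nearest MOF cKO peak. In the other epithelial-like cells the highest ratios were much smaller, 6.44 near Ptchd3 (2.88 CPM against 0.309 in hair-follicle-like cells), 5.91 near Zfp960 (4.08 against 0.95) and 5.85 near Rtl3 on the X chromosome (4.25 against 0.861). In fibroblast-like cells they were 21.4 in the region 445 kb from Pik3c3, 21 in an intron of Ebf1, a transcription factor gene of mesenchymal cells (5.32 CPM against 0.133 in hair-follicle-like and 0.0565 in other epithelial-like cells), and 20.7 in an intron of Wdr64 (7.06 CPM). In the Pik3c3 region the hair-follicle-like cells had 0 cuts, where 3 cuts would be 0.0663 CPM, and fibroblast-like cells 4.73 CPM. No region reached 100 cuts in immune-like or mural-like cells. There 0 cuts leave upper limits of 3.86 and 7.59 CPM, so these groups are not shown to be closed at the named regions.

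**Figure D3:**
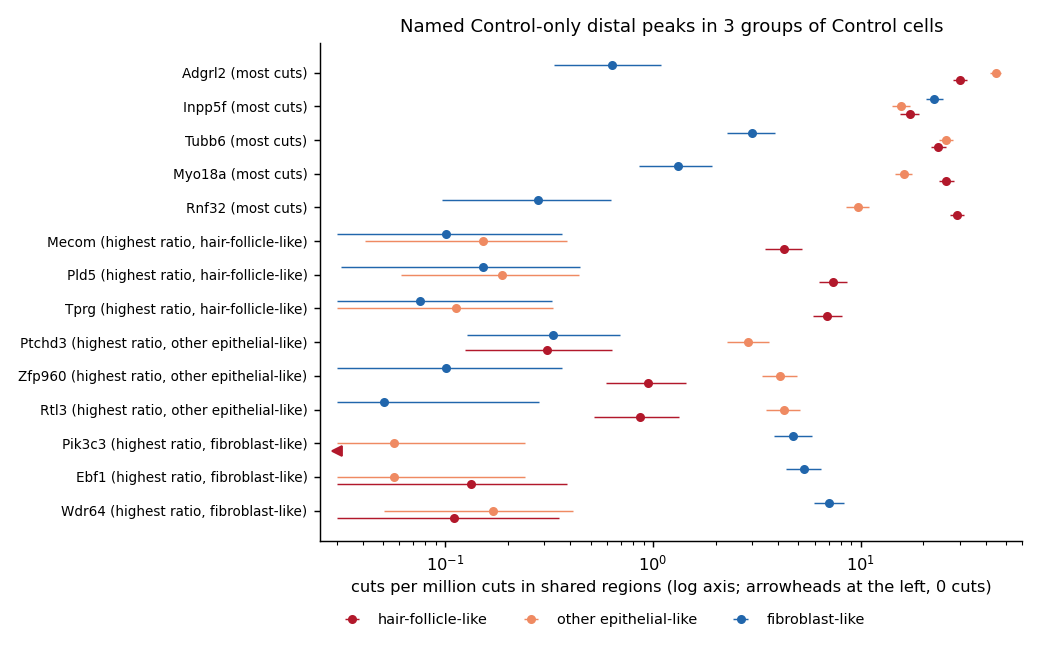
Level of 14 named Control-only distal peaks (x axis, CPM, log scale) in 3 groups of Control cells (points; bars, exact 95% Poisson intervals from fragments, cut at 0.03 CPM); rows give the gene that holds or lies nearest the region and how the region was chosen. The Mecom, Pld5 and Tprg regions reach 4.29, 7.38 and 6.91 CPM in hair-follicle-like cells and stay under 0.2 CPM in the other groups shown.

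Motifs were compared next. Base sequence itself was not used by the selection. The compared sets differ by the rule in having a MOF cKO peak, however, so a motif contrast between them is not independent of the selection. The AP-1 motif TGACTCA (or TGAGTCA on the other strand) was rare: it lay in the central 300 bp of 110 of 5154 Control-only distal peaks, 2.13% (1.76 to 2.57), against 15382 of 103011 shared distal peaks, 14.9% (14.7 to 15.2). The homeobox core TAATTA was common, in 952 regions, 18.5% (17.4 to 19.6), against 10.2% (10.0 to 10.4). In percentage points the other motifs differed less, although by ratio the rare GRHL motif (0.413) lay further from 1 than TAATTA (1.81). FOX (TGTTTAC) lay in 7.72% against 5.16%, TCF/LEF (CTTTGAT) in 9.0% against 6.09%, SOX (ACAATGG) in 4.91% against 3.70%, RUNX (TGTGGTT) in 9.97% against 8.43% and the NFI motif TTGGCA in 25.6% against 22.3%. Lower shares were seen for SP/KLF boxes (GGGCGGG, 4.25% against 5.27%), the GATA motif (AGATAAG, 3.67% against 4.32%), CEBP (TTGCNNAA, 13.8% against 14.9%) and the rare GRHL site (AACCGGTT, 0.116% against 0.281%). Within ranges of cuts the SP/KLF shares were close, 4.08% against 3.9% under 400 cuts and 4.8% against 4.86% from 400 to under 800. The GRHL share rests on 6 regions, and its interval covered the shared level in each range of cuts. The intervals of the remaining motifs covered the shared level, with TEAD (ACATTCC) in 6.64% against 7.22%, ETS (CCGGAAG) in 1.40% against 1.75%, KLF4 (GGGTGTG) in 9.25% against 9.80%, the E-box CAGCTG in 22% against 22.1%, MITF (CACGTG) in 5.53% against 5.33%, the RFX motif GTTGCCA in 4.37% against 4.46% and the glucocorticoid receptor motif ACANNNTGT in 10.8% against 10.3%. The RFX and NFI motifs share letters and are not independent of each other.

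The differences for AP-1 and TAATTA were present in each range of cuts. AP-1 lay in 2.13%, 2.04% and 3.03% of regions with under 400, 400 to under 800, and 800 or more cuts, against 14.8%, 13.8% and 16.7% of shared distal peaks. TAATTA lay in 17.7%, 22.4% and 17.4%, against 10.5%, 10.4% and 9.21%. In regions more than 1 kb from a MOF cKO peak, AP-1 lay in 2.24% (1.66 to 2.95) and TAATTA in 23.0% (21.2 to 24.8). Beyond 5 kb, 29.3% (25.2 to 33.7) held TAATTA, against 14% within 250 bp. Here too the distance is to peaks that the selection used, with no shared distal peaks beside it.

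The motifs also differed in where they lay. In Control-only regions TAATTA was concentrated at the middle: a 50-bp bin within 150 bp of the centre held it in 3.82% of regions on average, and a bin more than 350 bp away in 1.43%, a ratio of 2.68. In shared distal peaks the ratio was 1.20. For AP-1 the reverse was seen. Its ratio was 3.33 in shared distal peaks and 0.511 in Control-only regions, where bins near the centre held it in 0.365% and outer bins in 0.715%. TAATTA and AP-1 occurred together in 25 Control-only regions, 0.485% (0.314 to 0.715), against 1.55% (1599) of shared distal peaks.

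**Figure D4:**
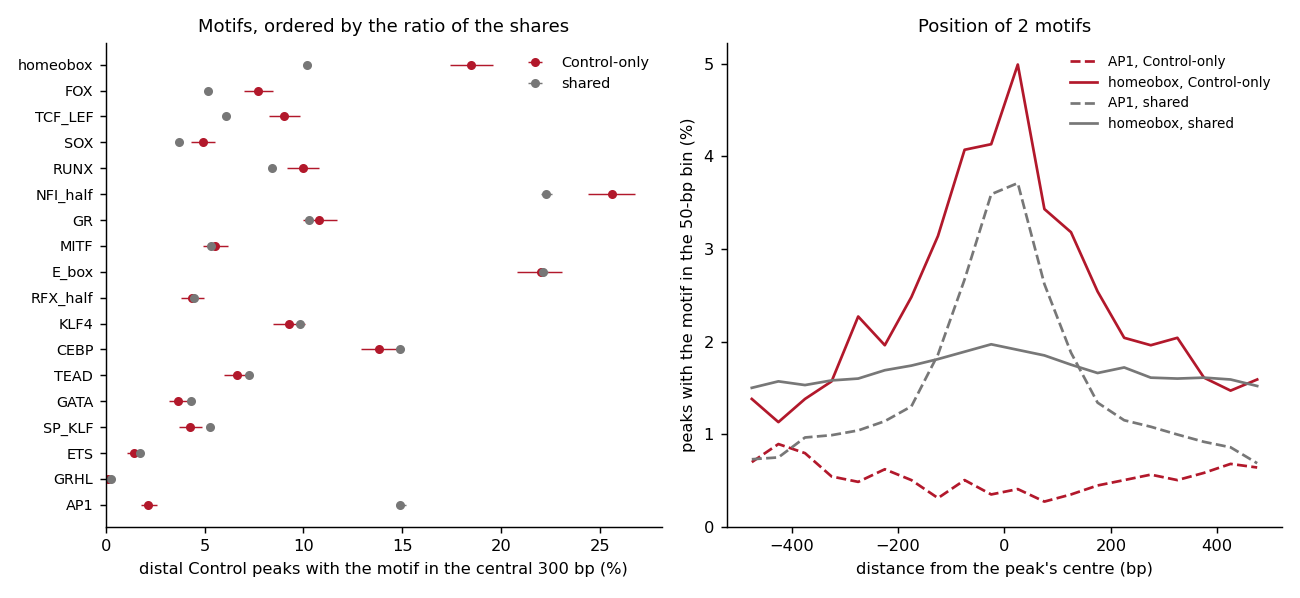
Left, percent of Control-only (red) and shared (grey) distal peaks with each of 18 motifs in the central 300 bp (x axis; bars, exact 95% binomial intervals), ordered by the ratio of the shares, from homeobox at the top (18.5% against 10.2%) to AP1 at the bottom (2.13% against 14.9%). Right, percent of peaks with a motif in each 50-bp bin (y axis) by distance from the peak's centre (x axis, bp); the homeobox line of Control-only peaks reaches 4.99% and the AP1 line of shared peaks 3.71%.

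The lower share of AP-1 was seen for every leading group, whereas the share of TAATTA differed most from shared distal peaks in regions led by hair-follicle-like cells. AP-1 lay in 2.09% of regions led by hair-follicle-like cells (shared distal peaks 12.1%), 1.75% of those led by other epithelial-like cells (18.7%), 2.37% of those led by fibroblast-like (10.6%), 1.28% by immune-like (22.8%) and 2.90% by mural-like cells (11.6%). TAATTA lay in 29.3% (27.4 to 31.3) of regions led by hair-follicle-like cells, 645 of 2199, against 15.6% of shared distal peaks with the same leading group. It lay in 5.94% (4.45 to 7.73) of those led by other epithelial-like cells against 7.60%, and in 13.4% (11.6 to 15.4) against 12.4% for fibroblast-like cells. For immune-like cells the shares were 9.27% (6.29 to 13) against 5.89% (5.50 to 6.31), and for mural-like cells 11.0% (8.46 to 14) against 8.21% (7.78 to 8.65). FOX followed TAATTA, with 12.1% against 8.20% for hair-follicle-like and 2.79% against 3.79% for other epithelial-like cells. TCF/LEF was above the shared level in both epithelial groups, at 11.7% against 7.72% and 10.5% against 7.46%. KLF4 motifs lay in 142 of 859 regions led by other epithelial-like cells (14.1% to 19.2%, shared 13.4%), and RUNX motifs in 14.1% (12.2 to 16.1) of those led by fibroblast-like cells (shared 10.8%).

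**Figure D5:**
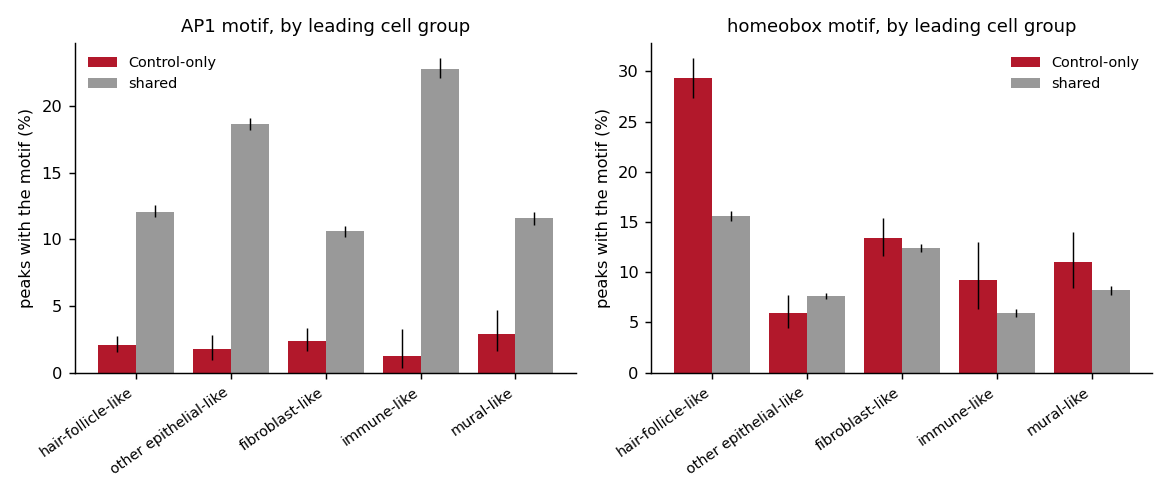
Percent of Control-only (red) and shared (grey) distal peaks with the AP1 (left) or homeobox (right) motif in the central 300 bp (y axis), by leading group of Control cells (x axis); bars, exact 95% binomial intervals. AP1 is below 3% for Control-only peaks in every group, and the homeobox motif reaches 29.3% in regions led by hair-follicle-like cells against 15.6% in shared peaks.

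Shared distal peaks, which unlike Control-only peaks have a level in both matrices, can be split by the change of their own region in epithelial-like cells. Here a change is log2 of CPM in MOF cKO over CPM in Control, after adding 0.5 cuts, and a region counts as changed past 2-fold. Of 11878 shared distal peaks in regions at least 2-fold lower, 2.46% (2.19 to 2.75) held AP-1, 16.3% (15.7 to 17.0) held TAATTA and 44.4% were led by hair-follicle-like cells. Of 73263 in regions that changed less than 2-fold, 10.2% held AP-1, 9.33% TAATTA and 17.6% were led by hair-follicle-like cells. Of 17609 in regions at least 2-fold higher, 43.0% held AP-1 and 9.64% TAATTA. The Control cells in this split included the hair-follicle-like cluster, with 558 of 1295 cells, whereas 26 of 2564 MOF cKO cells lay in it, so a region high in that cluster tends to count as lower. Without that cluster, an alternative added after seeing the data, the AP-1 share of regions at least 2-fold lower was 2.12% (1.85 to 2.41, n = 10255), but TAATTA lay in 10.5% (9.87 to 11.1) and 21.7% (20.9 to 22.5) were led by hair-follicle-like cells, against 10.2% and 19.6% of all these peaks. The low AP-1 share of regions lower in MOF cKO was thus present with and without the cluster, and the higher shares of TAATTA and of hair-follicle-like leads were close to those of all these peaks without it. AP-1 lay in 10.7% of regions that changed less than 2-fold and in 37.9% of those at least 2-fold higher in this alternative.

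Regions around the Control-only distal peaks were used to follow accessibility in both libraries, because shared regions have a level in each. The selection did not use these levels, although it did use the positions of the MOF cKO peaks in them. A shared distal region lay within 10 kb of 4683 of the 5154 Control-only peaks. In epithelial-like cells (1295 Control and 2564 MOF cKO cells) the 14165 shared distal regions within 10 kb had a median log2 change of -0.09 (-0.11 to -0.07), against 0.06 over all 165620 tested. Of them 12.7% (1806) were at least 2-fold lower in MOF cKO and 17.9% (2539) at least 2-fold higher. Over all shared distal regions the shares were 9.14% and 21.2%. The median did not follow proximity: it was 0.00 (-0.05 to 0.04) for the 2801 regions within 1 kb, of which 11.6% were lower and 21.1% higher, -0.11 (-0.13 to -0.09) over 1 to 10 kb, -0.06 (-0.07 to -0.05) over 10 to 50 kb and 0.10 for those farther away. Near regions led by hair-follicle-like cells the median was -0.17 (-0.19 to -0.14) with 15% at least 2-fold lower, near those led by other epithelial-like cells -0.15 with 13.7%, and near those led by fibroblast-like cells 0.03 with 9.84%. In fibroblast-like cells (653 and 1248 cells) the neighbours of all Control-only peaks had a median of 0.01 with 7.49% lower and 10.8% higher, against 7.90% and 11.9% over all shared distal regions, and those near regions led by fibroblast-like cells had -0.06 (-0.09 to -0.03). Neighbouring open regions were therefore only slightly shifted, and most did not pass 2-fold in either direction. Compared with the other Control epithelial-like cluster alone, the epithelial median near Control-only peaks was -0.01 against 0.07 over all. In that comparison it was -0.03 near regions led by hair-follicle-like cells, with 11.0% at least 2-fold lower. It was -0.16 near those led by other epithelial-like cells, with 13.9% lower, and 0.11 near those led by fibroblast-like cells, with 7.78% lower. Over all shared distal regions 8.65% were lower.

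Single neighbours moved in both directions. The shared region 3548 bp from the Tprg region had 6.22 CPM in epithelial-like cells of Control and 1.15 in those of MOF cKO (log2 -2.43), and that 125 bp from the Pld5 region 2.13 and 0.736 (log2 -1.53). The Tprg and Pld5 regions were chosen for their ratio in hair-follicle-like cells. These Control levels include that cluster, where few MOF cKO cells lie, and single neighbours were not compared without it. The region 1059 bp from the Adgrl2 peak went from 2.75 to 5.98 CPM (log2 1.12), and that 22161 bp from the Mecom peak from 1.37 to 2.74 (log2 1.00). The shared region 34 bp from the Tubb6 peak held 26.4 and 21.8 CPM (log2 -0.28), a change within 2-fold next to a peak that the MOF cKO list lacks.

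Promoters near Control-only distal peaks had the same median change as other promoters to within 0.02 and a like share at least 2-fold lower, but a smaller share at least 2-fold higher. A protein-coding gene had such a peak within 50 kb of a start site in 4523 of 21853 cases (20.7%). In epithelial-like cells the 4037 measured promoters of such genes had a median log2 change of -0.42 (-0.43 to -0.41), against -0.41 over all 15877 promoters and -0.40 over the 11840 without a peak nearby. Of the 4037, 2.06% (83) were at least 2-fold lower and 1.39% (56) at least 2-fold higher, against 2.20% and 2.49% of all promoters, and 2.26% (267) and 2.87% (340) of those without a peak nearby. With at least 3 such peaks within 50 kb the median was -0.43 over 305 promoters. In fibroblast-like cells 0.820% were lower and 0.969% higher, against 0.807% and 1.83% of all promoters, with a median of -0.04 against -0.03. The median of all promoters lies below 0 in epithelial-like cells on this scale, so a gene at -0.41 changed as the median promoter did.

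Skin gene lists had these peaks nearby more often than the 20.7% of all protein-coding genes. Epidermal transcription factor genes had 14 of 20 with a Control-only distal peak within 50 kb of a start site, basal adhesion genes 10 of 18, epidermal differentiation genes 13 of 25, hair follicle fate genes 12 of 25 and dermal fibroblast genes 7 of 20. Open distal regions are dense around such genes, and counted as a share of all distal Control peaks of at least 200 cuts in the same windows, Control-only peaks were 9.78% for epidermal transcription factors, 8.91% for hair follicle fate, 8.53% for epidermal differentiation, 5.67% for basal adhesion and 5.58% for dermal fibroblast genes, against 4.90% over all genes. These shares and the counts below were summed over genes, so a peak within 50 kb of several genes was counted for each. The total over all genes, 6113, therefore exceeds the 5154 peaks. Counted in this way, hair-follicle-like cells led 21 of 27 at epidermal transcription factor genes and 15 of 27 at hair follicle fate genes. They led 11 of 22 at epidermal differentiation genes, 7 of 14 at basal adhesion genes and 0 of 11 at dermal fibroblast genes, against 2333 of 6113 over all protein-coding genes. The epidermal transcription factor and differentiation lists share Casz1, Klf4, Grhl3 and Zfp750, whose peaks (6, 3, 1 and 1) are counted in both. Fibroblast-like cells led 9 of 11 at dermal fibroblast genes, against 1318 of 6113 over all genes. All 3 peaks near Lhx2, the homeobox gene of follicle stem cells, and all 3 near Ovol2, a zinc finger repressor of epithelial cells, were led by hair-follicle-like cells. Casz1, a zinc finger transcription factor gene, had 6, of which 4 were led by hair-follicle-like cells. Other genes of the hair follicle list were mixed. Hair-follicle-like cells led 3 of 5 near Cux1, 1 of 5 near Runx1, 2 of 4 near Wnt10a, a Wnt ligand gene of skin appendages, and 0 of 2 near Edar, the ectodysplasin receptor gene. All 3 near Twist2, a dermal transcription factor gene, were led by fibroblast-like cells. The hair follicle list includes the 8 markers, Lhx2 and Edar among them, whose promoters gave the hair-follicle-like cluster its name. The dermal list likewise includes the markers of the fibroblast-like clusters, so these leads are not independent of the names.

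Promoters of these genes were mostly lower in MOF cKO epithelial-like cells, as promoters were in general. Of the 14 epidermal transcription factor genes with a peak nearby, 13 had a log2 change below 0 and 2 passed 2-fold, with a median of -0.49. All 6 of the list's genes without a peak nearby were also below 0, as were 84.1% of all promoters and 87.3% of those with a peak nearby, so the count of 13 is near the background. At least 2-fold lower were 2.20% of all promoters and 2.06% of those with a peak nearby, on a scale where the median promoter is at -0.41. The genes past 2-fold were Trp63, which encodes p63, the master factor of stratified epithelium (27.9 CPM in Control and 12.5 in MOF cKO, log2 -1.15; 5.90 and 3.07 CPM in fibroblast-like cells, log2 -0.94), and Tfap2b (13.2 and 6.29 CPM, log2 -1.07; fibroblast-like cells -0.53). In fibroblast-like cells, which the Cre does not target, the intervals of the 2 libraries did not overlap for Trp63 (4.88 to 7.07 and 2.48 to 3.75 CPM). They did overlap for Tfap2b (4.53 CPM, 3.64 to 5.57, and 3.15 CPM, 2.55 to 3.84). The cause of either change was not tested. None of the 11 hair follicle fate genes with a peak nearby passed 2-fold, as is usual at these background shares, and their median was -0.52. Lhx2 was at -0.85 (31.3 and 17.4 CPM) and Wnt10a at -0.94 (16.6 and 8.69 CPM), but the Control value includes the hair-follicle-like cluster, where few MOF cKO cells lie. Without that cluster, an alternative added after seeing the data, Lhx2 was at -0.27, Wnt10a at -0.66 and the list's median at -0.35, against -0.36 over all promoters, while Trp63 and Tfap2b were both at -1.25. Epidermal differentiation genes had a median of -0.47 with a peak nearby (12 measured, 1 at least 2-fold lower) and basal adhesion genes -0.31 (10 measured, 0 at least 2-fold lower). The gene past 2-fold was Abca12, a lipid transporter gene of the skin barrier (log2 -1.60). In fibroblast-like cells it was at -1.81, but from levels near the floor with overlapping intervals. These were 0.354 CPM (0.142 to 0.73) in Control and 0.0968 (0.02 to 0.283) in MOF cKO. Without the Control hair-follicle-like cells the medians of these epidermal differentiation and basal adhesion genes were -0.41 and -0.13, with 2 and 0 genes at least 2-fold lower. The 7 dermal fibroblast genes had medians of 0.03 in epithelial-like cells and -0.17 in fibroblast-like cells.

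Control-only distal peaks were grouped into runs in which consecutive peaks were less than 50 kb apart. Of 3753 runs 2845 held 1 region, 2309 of the 5154 regions lay in runs of 2 or more, and 288 runs of 3 or more held 1069 regions. Shared distal peaks were not grouped in this way, so the counts of runs are a description without a comparison. The largest number in a run was 8, which 4 runs reached. The 3 of these with the most cuts were a stretch of 138 kb on chromosome 17 (84234592 to 84372597) by Thada and Zfp36l2, a stretch of 155 kb on chromosome 12 (79839149 to 79994505) by Zfp36l1, and a stretch of 111 kb on chromosome 4 (82291558 to 82402370) by Nfib. In the Thada and Zfp36l2 run hair-follicle-like cells led 5 regions and other epithelial-like cells 3. In the Nfib run hair-follicle-like cells led 5 of 8. In the Zfp36l1 run they led 3 of 8, other epithelial-like cells 1, fibroblast-like cells 1 and immune-like or mural-like cells 3. Over all Control-only distal peaks hair-follicle-like cells led 42.7%. TAATTA lay in 1 of 8 regions of the Thada and Zfp36l2 run, 0 of 8 by Zfp36l1 and 3 of 8 by Nfib, against 18.5% of all Control-only distal peaks. Zfp36l1 and Zfp36l2 encode RNA-binding proteins that promote decay of messenger RNA, and Nfib a transcription factor of hair follicle stem cells. Their promoters in epithelial-like cells had log2 changes of -0.82 (54.7 and 31.0 CPM), -1.32 (22.4 and 8.96 CPM) and -1.34 (45.4 and 18 CPM). In fibroblast-like cells they were -0.09, -0.19 and -0.77. Thada, the other gene of the chromosome 17 run, was at -0.44 (37.7 and 27.7 CPM) in epithelial-like cells, near the median promoter (-0.41). In fibroblast-like cells Thada was at -0.06. By number within 50 kb of start sites, Sh3pxd2a, which encodes a scaffold protein of podosomes, led with 11, followed by Celsr1, a planar cell polarity gene, and Gse1 with 7 each, a number that Kat14 also reached. Shared distal peaks in the same windows numbered 46 for Sh3pxd2a, 36 for Celsr1, 43 for Gse1 and 14 for Kat14. The order by number does not allow for this density and is not an order by share. The Sh3pxd2a promoter was higher in MOF cKO epithelial-like cells (25 and 39.5 CPM, log2 0.66), while Celsr1 (log2 -0.58) and Gse1 (-0.68) were lower, all within 2-fold. Without the Control hair-follicle-like cells Sh3pxd2a passed 2-fold (log2 1.14), and Celsr1 (-0.55) and Gse1 (-0.61) did not.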

How the data were processed

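Control and MOF cKO back skin at E16.5 was profiled as 1 library each by single-cell ATAC-seq. The authors aligned reads with Cell Ranger ATAC to mm10 and deposited, per library, a peak list, barcodes and a matrix of raw counts of transposition cuts per peak and cell, with peaks called separately in each library. A fragment gives 2 cuts, and 88.8% and 91.6% of non-zero counts were even, so Poisson intervals used fragments. Distances to start sites used GENCODE M21 on GRCm38. Cells with at least 1000 cuts (2481 Control, 4348 MOF cKO) were clustered on 50000 autosomal regions shared by the libraries (TF-IDF, 28 of 30 components, 20 neighbours, Leiden resolution 1, leidenalg 0.10.2). A cluster was named when at least 3 markers were 2-fold above the median of other classes. Clusters with a median doublet score of 0.5 or more, or shallow with no marker among their top 10 genes, stayed unnamed, and no cell was removed as a doublet in the main analysis.

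CPM used cuts in shared regions of the same cells. Promoters were shared regions within 500 bp of a protein-coding start site, and promoters and shared distal regions needed at least 20 cuts over both libraries. Medians carry order-statistic intervals and shares exact binomial intervals (scipy 1.17.1). Motifs were exact matches on both strands in the central 300 bp. Named regions were the 5 with most cuts, the 3 with the highest ratio per cell group among those with at least 100 cuts there, the 3 largest runs and the 3 on either side of the minimum of 200 cuts. Genes named were those that held or lay nearest these regions, the 3 with most Control-only peaks within 50 kb, and, chosen after values were seen, members of the gene lists. The regions, gene lists and motifs were chosen with earlier results of these data known. Scripts were tested on simulated data. Alternatives were the cut minimum, distances, scaling, filters and doublets. The libraries and the genotypes cannot be told apart.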

Additional observations from a re-analysis of the deposited data

Results flagged for a closer look

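The shared distal regions within 10 kb of a Control-only distal peak had medians on opposite sides of 0 in the 2 cell classes, -0.09 (log2) in epithelial-like cells, 0.01 in fibroblast-like cells, a difference of -0.10 (epithelial-like minus fibroblast-like). It was flagged because the medians lay on opposite sides of 0, although that of fibroblast-like cells was near 0 (0.00 to 0.03), and both lay below the medians of all shared distal regions, 0.06 and 0.04. With 1 library per genotype the difference was not tested.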

How the results depend on the processing

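With a minimum of 100 or 400 Control cuts in place of 200, the number of Control-only distal peaks was 19559 or 966, the share led by an epithelial-like cluster 48.2% or 68.8% (shared distal peaks 46.0% and 53.1%), and the median epithelial change of shared distal regions near them -0.03 or -0.16. The AP-1 share was 2.88% at 100 cuts (shared 15.8%). Requiring a gap of over 1 kb to the nearest MOF cKO peak gave 2188 peaks, 61.5% epithelial-led and a distal median of -0.13, and comparing with only as many MOF cKO peaks as Control has gave 8344 peaks. The epithelial-led share was 66% with cuts per cell (shared 59.1%) and, in an alternative chosen after seeing the data, 68.4% among only the 3 groups of over 100 Control cells (shared 63.3%). The share led by hair-follicle-like cells ranged from 31.3% (100 cuts; shared 18.1%) to 50.4% (cuts per cell; shared 30.1%), with 48.3% among the 3 groups (shared 25.3%). The AP-1 share was 4.07% in the central 500 bp and 8.11% in whole peaks (shared 19.0% and 24.8%). The promoter median was -0.57 with the cuts in all own peaks as the total, -0.02 with median-of-ratios factors, -0.44 without the 6% of cells of highest doublet score and -0.37 without the Control hair-follicle-like cells, where all promoters had -0.55, 0.00, -0.43 and -0.36. The distal median was -0.24, -0.15, -0.17 and -0.01 under the same alternatives, where all distal regions had -0.09, 0.00, -0.03 and 0.07, so it stayed below the median of all in each. The cause of these shifts was not tested. A start site distance of 5 kb lowered the number of peaks to 4111 and left the shares and medians within their intervals, as did dropping the minimum of 20 cuts for both medians. Depth limits immune-like and mural-like levels, which rest on 46 and 20 Control cells. No paired analysis was possible because each genotype has 1 library.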

Other observations

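Among all shared distal peaks with at least 200 Control cuts, those that held TAATTA had a median log2 change of -0.14 (-0.17 to -0.12, n = 10476) in epithelial-like cells, those with TCF/LEF -0.23 (-0.26 to -0.20), those with FOX -0.13 and those with AP-1 0.98 (0.96 to 1.00, n = 15347). In fibroblast-like cells the medians were -0.03, 0.02, 0.02 and 0.45. Of the 15347 with AP-1, 7569 were at least 2-fold higher in MOF cKO epithelial-like cells, 7486 changed less than 2-fold and 292 were at least 2-fold lower. Over all 102750 such peaks 17609 were at least 2-fold higher and 11878 at least 2-fold lower. In fibroblast-like cells 3584 of 14929 with AP-1 were at least 2-fold higher and 402 at least 2-fold lower, against 9760 and 7150 of all 98243. Without the Control hair-follicle-like cells the epithelial medians were 0.05 for TAATTA, -0.21 for TCF/LEF, 0.02 for FOX and 0.93 for AP-1, so those for TAATTA and FOX changed sign.

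The unnamed Control cells also had cuts in Control-only distal peaks. The shallow cluster of 315 Control cells (median 2559 cuts) had 2.36% of its cuts in distal peaks of at least 200 cuts there, the cluster of 98 Control cells with a median doublet score of 0.88 had 2.17%, and the cluster of 30 Control cells with 2 melanocyte markers 2.65%.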
